A study of Mus musculus with 6 samples.

Results

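The genes described here are 50 mitosis and spindle genes, chosen by gene name: mitotic cyclins and kinases, the spindle checkpoint, the anaphase machinery, kinetochore subunits, spindle motors, cytokinesis factors and condensins. All 50 had a probe on the array, out of 19755 genes and other named features tested, and each is given by its brightest probe. RNA came from skin tumours of male mice, 3 labelled P2ry6-/- (KO1, KO2 and KO3) and 3 labelled P2ry6+/+ (WT1, WT2 and WT3). P2ry6 encodes a receptor for extracellular nucleotides. Mice of both genotypes, 12 of each, had 195 nmol of the mutagen DMBA on the shaved back, then repeated doses of 16 nmol of the tumour promoter TPA up to week 22, so every tumour here, WT included, was chemically induced; untreated skin is not analysed here. The labels do not name the strain, the age, the tumour stage or the part of P2ry6 that was deleted, and they do not say whether each tumour came from its own mouse, so the error terms measure the spread between these 6 samples only.

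Dividing cells transcribe these genes in a wave that peaks in G2 phase and mitosis. Cdk1 with its cyclins starts mitosis, the checkpoint holds the cell until every kinetochore has caught spindle microtubules, and the anaphase-promoting complex then marks cyclin B and securin for destruction so that sister chromatids part and the cell divides. In skin, dividing cells sit mainly in the basal epidermis and the hair follicle, and in chemically induced papillomas and carcinomas the level of this wave in whole-tumour RNA is commonly read as a measure of how many cells are cycling.

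All 6 arrays were on 1 slide and 1 scan. Levels are log2 brightness minus the array's 75th percentile, so 0 lies at that percentile, and levels of different genes are not set against each other because probes differ in brightness. Between 54.2 and 59.4% of probes per array were well above background, and no spot was saturated. Values of a group are given in the order of tumours 1, 2 and 3, and the labels KO and WT are used as given. The targeted gene was not lower in the KO tumours: both P2ry6 probes exceeded background on each of the 6 arrays, the brighter at 0.57 ± 0.13 in KO tumours and 0.17 ± 0.33 in WT tumours (SD, n = 3 each) and the dimmer at -0.70 ± 0.25 in KO tumours and -1.24 ± 0.37 in WT tumours. Where the probes lie relative to the deleted part was not stated, so they may not check the deletion. Basal keratinocyte markers (Krt5, Krt14, Trp63 and 6 others), which mark the epidermis, had a summed level of 1776 to 2158 times the 75th percentile in KO tumours and 1758 to 1898 times in WT tumours. Krt14 made up 44.7 to 50.8% of that sum. The mean log2 level of these markers was 5.46, 5.88 and 6.06 in the KO tumours and 5.70, 5.48 and 6.17 in the WT tumours.

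The mitosis and spindle genes were on the whole slightly lower in the KO tumours, and 1 KO tumour stood apart from the other 2. Of 50 genes, 49 had a mean below that of the WT tumours and 1, Ccnb2, had a mean above it; over all features tested, 47.9% had a mean below. The median difference was -0.26 on the log2 scale, a 1.20-fold lower level, where the median of all features was 0.02. None of the 50 passed the test: 0 had a limma adjusted p under 0.05 (the smallest was 0.206), against 0.162% of all features (32 features; 0.111% lower). At an unadjusted p under 0.05, 6 genes were lower (Ttk, Kif23, Ncaph, Smc2, Plk4 and Nusap1) and 0 were higher, where 13.2% of all features were past it, 5.36% lower and 7.85% higher. That count was 2 when KO2, KO3, WT1 or WT3 was left out, 9 without WT2 and 22 without KO1. By the brightest probe, every KO tumour lay below every WT tumour in 5 genes (Ttk, Kif23, Ncaph, Plk4 and Nusap1), against 7.36% of all features. In 0 genes was every KO tumour above every WT tumour (12.1% of all features). The 50 genes are turned on together in dividing cells and are not independent of each other, and in RNA from whole tumours fewer dividing cells and less of each RNA per dividing cell cannot be told apart.

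**Figure D1:**
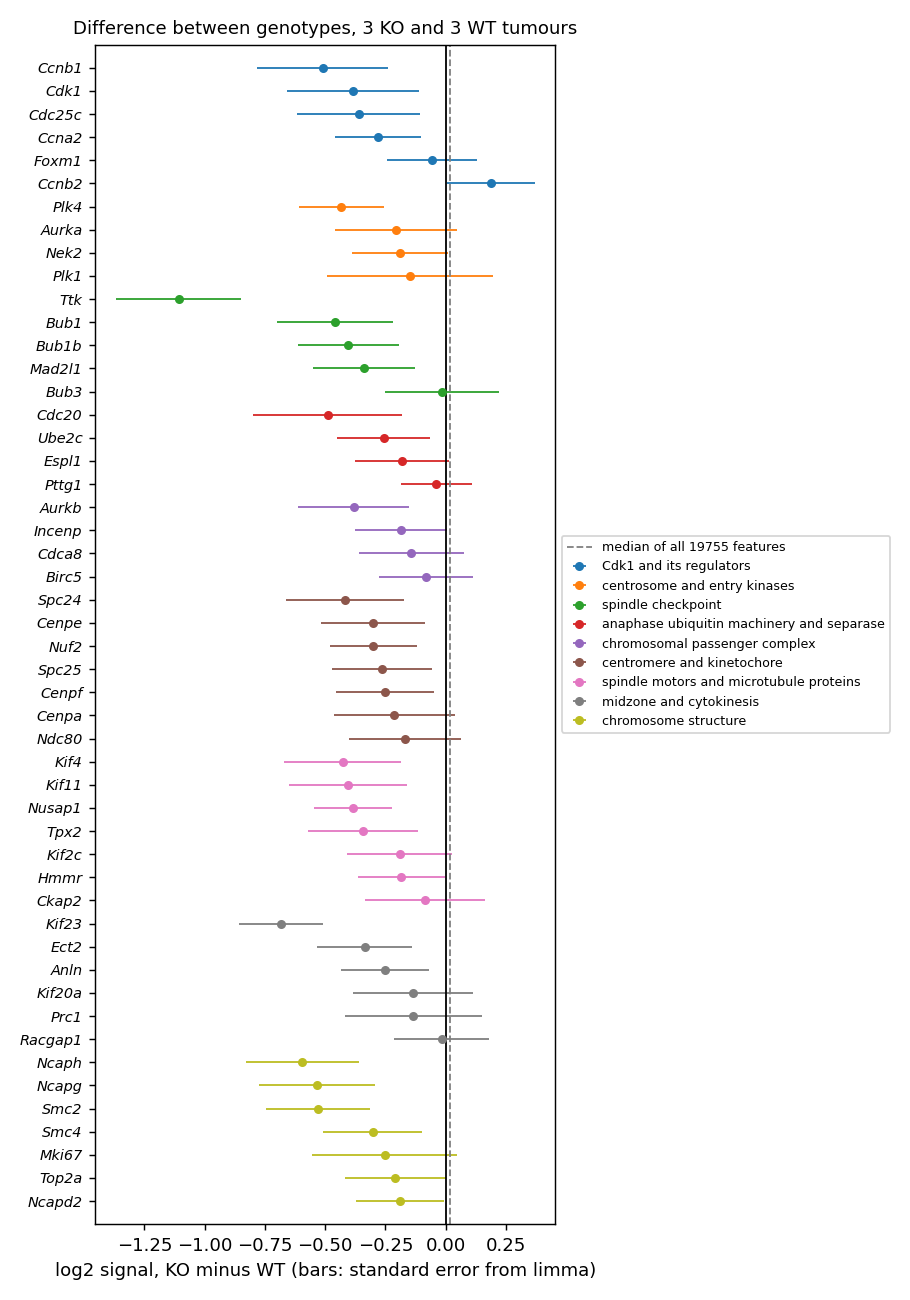
Difference of each of the 50 genes between KO and WT tumours (log2, KO minus WT, horizontal axis), ordered by role, with bars for the standard error from limma over 3 KO and 3 WT tumours. All points but Ccnb2 lie left of 0, Ttk lies farthest at -1.11, and most bars are wide against the size of the difference.

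The KO tumours differed among themselves. KO1 had the highest level of the 3 KO tumours for 50 of 50 genes, where 39.8% of all features had KO1 on top. It exceeded KO2 by a median of 0.57 (1.49-fold, range 0.10 to 1.16) and KO3 by a median of 0.45 (1.36-fold, range 0.08 to 1.22), while over all features those medians were 0.01 and 0.03. KO1 lay above every WT tumour for 16 genes, among them for 29 and below all of them for 5. KO2 and KO3 were both below every WT tumour for 39 of the 50, against 16.0% of all features. The lowest of the 6 tumours was KO2 for 37 genes, KO3 for 12 and WT3 for 1, and the highest was KO1 for 16, WT1 for 17, WT2 for 8 and WT3 for 9. Among the WT tumours no tumour led throughout: WT1 was highest for 24 genes, WT3 for 14 and WT2 for 12.

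The spread among KO tumours was the wider, with a median SD of 0.34 in KO tumours and 0.16 in WT tumours, and with the KO value the larger for 44 of 50 genes (35.8% of all features), whereas over all features the medians were 0.204 in KO tumours and 0.275 in WT tumours. Without KO1 the median difference was -0.43 (1.34-fold lower), 49 genes were lower (48.5% of all features were), and 22 were lower at an unadjusted p under 0.05, where 5.33% of all features were. Still 0 passed the limma adjusted threshold without KO1 (smallest adjusted p 0.253), which 0.0810% of all features did. Each tumour was left out in turn, and the median difference was -0.15 without KO2 and -0.21 without KO3. The labels give no ground for setting KO1 aside. Values without KO1 given for some genes below leave out the highest KO tumour of each.

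**Figure D2:**
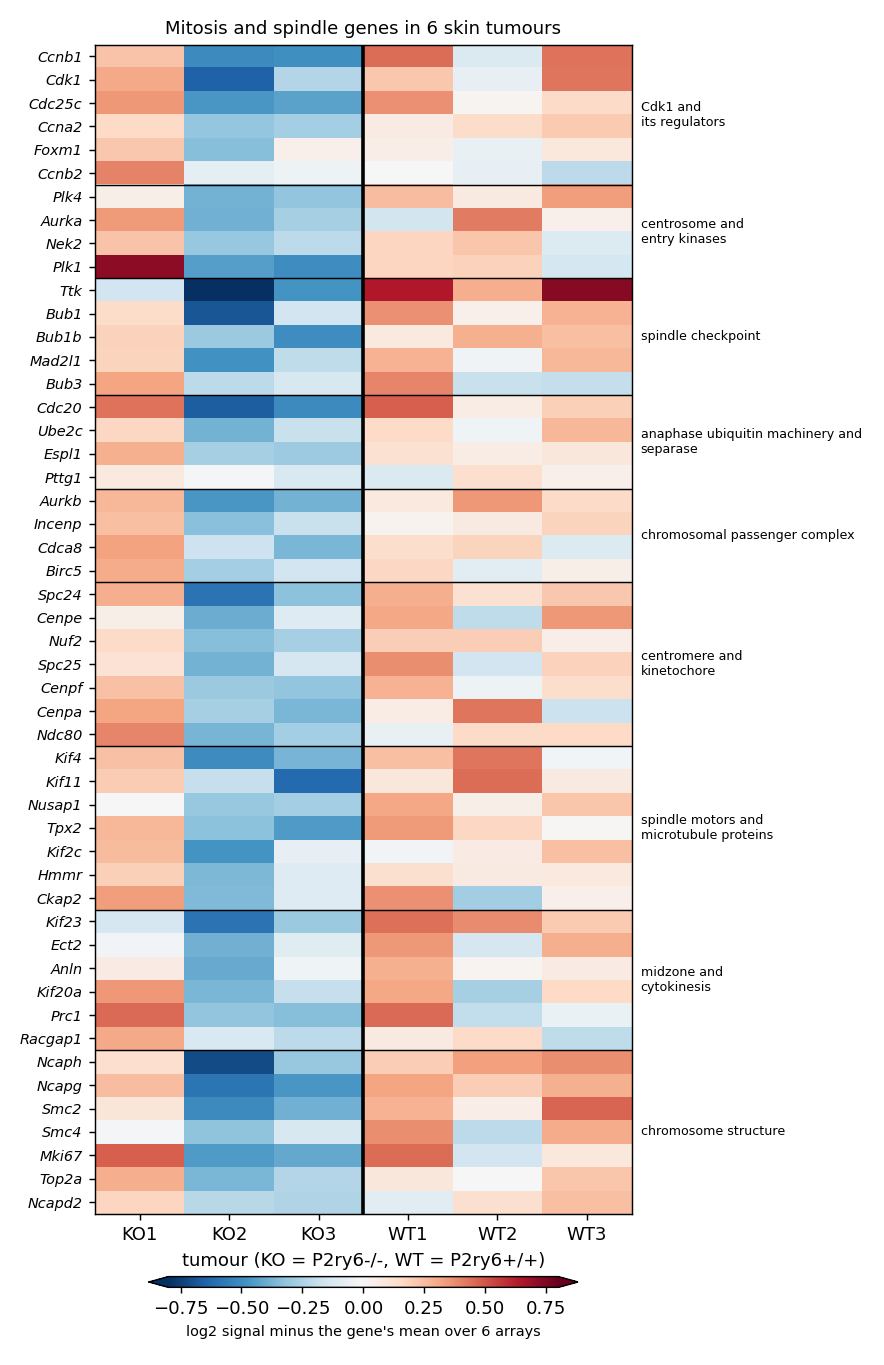
Level of each of the 50 genes in each tumour as log2 signal minus that gene's mean over the 6 arrays (colour; blue below the mean, red above, with values past the ends of the scale drawn in the end colours), KO tumours on the left and WT tumours on the right, in rows by role. KO2 and KO3 are blue for nearly every gene, and KO1 is red for most, like the WT tumours.

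Position on the slide was tangled with genotype. The slide column that held KO1, KO2 and WT2 gave 39 genes lower in KO and a median difference of -0.13, and the column that held KO3, WT1 and WT3 gave 49 lower and a median of -0.43. Only row 2 of the slide held both genotypes, KO1 against WT3, and there 20 of 50 genes were lower in KO and the median was 0.08 (all features: 48.4% lower, median 0.02). KO2 and KO3 shared row 3 and WT1 and WT2 row 1, so the split of KO1 from KO2 and KO3 is also a split by slide row. Neither that split nor the genotype of rows 1 and 3 can be told apart from slide row.

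Markers of other cell types also differed between the tumours, given here as each list's summed level in multiples of the 75th percentile. Differentiated keratinocyte markers (9 of 10 listed were found, all well above background) summed to 2022, 2064 and 1482 in the KO tumours and 1326, 1372 and 850.3 in the WT tumours. The 11 leukocyte markers summed to 308, 375 and 322 in the KO tumours and 139.8, 266 and 137 in the WT tumours, with Cd8a not well above background on any array. Both sums were higher in every KO tumour than in any WT tumour, but S100a8, a gene of neutrophils that keratinocytes can also express, made up 82.9 to 92.8% of the leukocyte sum. The 10 other leukocyte markers summed to 26.1, 26.9 and 27.9 in the KO tumours and 23.9, 24.3 and 19.0 in the WT tumours. The 14 skeletal muscle markers summed to 8.53, 3.08 and 5.76 in the KO tumours and 21.3, 369 and 53.9 in the WT tumours, and 9 of them, Ckm and Des included, were not well above background on any KO array. The 10 hair follicle markers, of another site of dividing cells, summed to 16.3, 30.9 and 28.8 in the KO tumours and 71.7, 265.6 and 19.7 in the WT tumours. Gata3 made up most of that sum in every KO tumour and in WT3. Its log2 levels were 3.94, 4.68 and 4.79 in the KO tumours and 3.53, 4.34 and 3.85 in the WT tumours, a difference of 0.56. Each of the 14 muscle markers was lower in every KO tumour than in any WT tumour, which held for 7.36% of all features. Of the muscle markers, 2 passed the limma adjusted threshold (0.162% of all features). The follicle keratins Krt25 and Krt71 were also lower in every KO tumour than in any WT tumour, although the follicle sums overlapped. Neither keratin was well above background on every KO array, so both also entered through the WT tumours.

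The 9 adipocyte markers summed to 463, 188 and 176 in the KO tumours and 303, 366 and 504 in the WT tumours, of which Fabp4, which cells other than adipocytes also express, was 91.5 to 99.5%. The 8 other adipocyte markers summed to 2.10, 1.66 and 1.98 in the KO tumours and 13.7, 31.0 and 21.8 in the WT tumours. Adipoq, Cfd, Pparg, Car3 and Cidec were lower in every KO tumour, KO1 included, than in any WT tumour (7.36% of all features were). Of the list, 3 passed the limma adjusted threshold (0.162% of all features). Only 4 of the 9 were well above background on all 6 arrays. Adipoq, Cfd, Car3 and Cidec entered the test through the WT tumours alone, so these counts partly follow from the filter. Adipoq, Plin1, Cfd and Car3 were not well above background on any KO array. Lep went the other way, at -1.70, -1.49 and -1.19 in the KO tumours and -1.71, -1.90 and -1.90 in the WT tumours (log2). It was thus higher in every KO tumour than in any WT tumour, which held for 12.1% of all features. Lpl overlapped between genotypes. The 6 endothelial markers summed to 9.84, 7.99 and 7.43 in the KO tumours and 9.46, 12.2 and 8.39 in the WT tumours, and the 7 fibroblast markers to 409, 642 and 276 in the KO tumours and 303, 418 and 130.1 in the WT tumours. Both sums overlapped between genotypes, and 0 markers of either list separated them. The part of these cell types in the result was not tested.

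Promoters of genes expressed in mitosis often hold a cell cycle homology region (CHR), the letters through which the MuvB complex, with Foxm1 or Mybl2, turns them on late in the cell cycle and, with repressors, keeps them silent in resting cells, together with CCAAT boxes bound by the factor NF-Y. RefSeq windows (GRCm38.p6, 250 bases before to 50 after the start) were at hand for 41 of the 50 genes, and the letters TTTGAA or TTCGAA (CHR) and CCAAT were searched on both strands. The 7 promoters shown run from 150 bases before the start to 30 after, 5′ to 3′ on the gene's strand, with the letters of a CHR or CCAAT match on either strand in capitals (TTCAAA and ATTGG are matches on the other strand). Ttk (chr9:83834539-83834718, plus strand) and Kif23 (chr9:61946770-61946949, minus strand) had the largest differences between genotypes, Smc2 (chr4:52439071-52439250, plus strand) is a condensin subunit, Cdc20 (chr4:118437314-118437493, minus strand) and Plk1 (chr7:122159285-122159464, plus strand) had the widest spread among KO tumours, Ccnb2 (chr9:70421525-70421704, minus strand) was the only gene higher in KO, and Ncaph (chr2:127133925-127134104, minus strand) had no match although it was lower by 0.59.
Ttk: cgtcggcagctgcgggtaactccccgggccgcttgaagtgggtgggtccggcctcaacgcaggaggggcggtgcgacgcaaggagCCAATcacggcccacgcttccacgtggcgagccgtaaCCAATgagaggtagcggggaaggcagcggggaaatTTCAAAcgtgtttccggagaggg
Kif23: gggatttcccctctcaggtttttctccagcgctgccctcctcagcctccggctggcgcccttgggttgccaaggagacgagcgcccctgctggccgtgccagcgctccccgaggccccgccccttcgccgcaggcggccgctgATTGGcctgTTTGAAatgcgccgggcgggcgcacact
Smc2: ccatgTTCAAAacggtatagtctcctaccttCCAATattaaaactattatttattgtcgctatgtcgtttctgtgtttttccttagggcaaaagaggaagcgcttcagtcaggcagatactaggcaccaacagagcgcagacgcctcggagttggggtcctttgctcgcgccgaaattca
Cdc20: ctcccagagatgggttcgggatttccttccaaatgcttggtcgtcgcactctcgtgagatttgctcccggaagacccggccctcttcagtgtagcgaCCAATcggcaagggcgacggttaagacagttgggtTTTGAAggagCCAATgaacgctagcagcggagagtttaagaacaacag
Plk1: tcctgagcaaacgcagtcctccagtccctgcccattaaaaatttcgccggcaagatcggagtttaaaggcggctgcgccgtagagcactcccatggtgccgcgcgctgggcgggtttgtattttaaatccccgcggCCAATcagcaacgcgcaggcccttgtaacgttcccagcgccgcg
Ccnb2: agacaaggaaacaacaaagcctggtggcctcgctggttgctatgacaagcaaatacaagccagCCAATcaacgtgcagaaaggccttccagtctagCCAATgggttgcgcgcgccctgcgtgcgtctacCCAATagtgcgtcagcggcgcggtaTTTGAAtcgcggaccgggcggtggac
Ncaph: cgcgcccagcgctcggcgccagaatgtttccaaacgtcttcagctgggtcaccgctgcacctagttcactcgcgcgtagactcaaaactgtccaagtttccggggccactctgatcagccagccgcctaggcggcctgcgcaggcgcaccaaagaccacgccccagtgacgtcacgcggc

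Ttk, Kif23, Smc2, Cdc20 and Ccnb2 each show 1 CHR match in this stretch, and Plk1 and Ncaph show none. Matches to CCAAT numbered 3 in Ccnb2, 2 each in Ttk and Cdc20 and 1 each in Kif23, Smc2 and Plk1, so Ccnb2, which was higher in KO, carries the same kinds of letters as Ttk and Kif23. Smc2, Plk1 and Ccnb2 each had 1 further match in the longer window. A match is a description of letters, not of a bound site.

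Over the longer windows, of which the 41 genes had 44, CHR letters were in 34 (77.3%; 31 genes), against 19.2% of all 32851 windows in the table. CCAAT was in 34 of the 44 (77.3%), against 37.4% of all, and 2 or more CCAAT were in 22 (50%), against 11.7%. Both kinds were in 31 windows (70.5%), against 7.52% of all, and the E2F letters TTTGGCGC or TTTCGCGC were in 2 (4.55%; Cdk1 and Ncapd2), against 0.813%. The letters also sat close to the start, as counted in the first window of each gene only. The median position of a CHR match was -12 bases from the start. Of 41 CHR matches, 78% fell between 100 bases before and 50 after, where 42.3% of 6066 in the first windows of all genes did. For CCAAT, 69.6% of 69 matches fell there, with a median position of -65, against 55% of 14907.

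**Figure D3:**
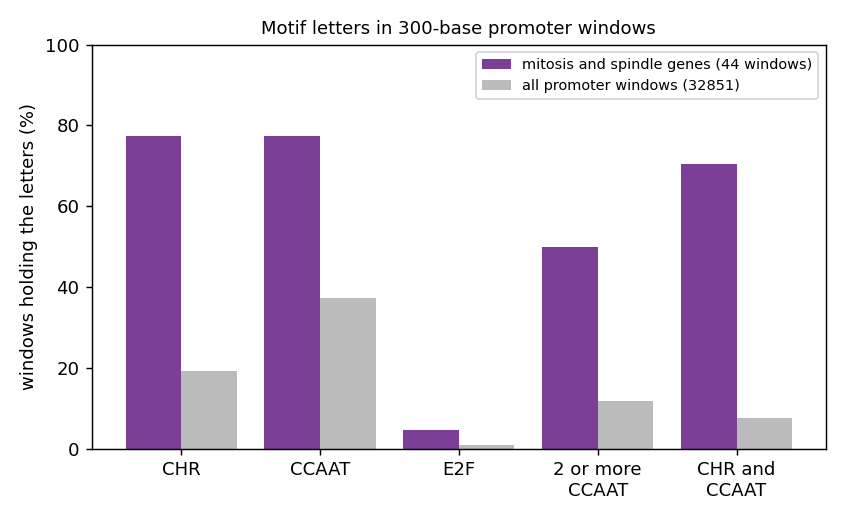
Share of 300-base promoter windows (percent, vertical axis) that hold each motif's letters on either strand, for the 44 windows of 41 mitosis and spindle genes and for all 32851 windows in the RefSeq table. CHR letters together with CCAAT are in 70.5% of the genes' windows and in 7.52% of all windows.

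The genes were also grouped by these letters. The 28 genes with both kinds had a median difference of -0.25 between genotypes and a median of 0.57 for KO1 minus KO2. The 7 genes with neither kind in the window (Birc5, Mad2l1, Ncaph, Nuf2, Nusap1, Plk4 and Pttg1) had medians of -0.34 and 0.49, and the 6 with only 1 kind had -0.22 and 0.63. No test was made between these groups.

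Cdk1 and its regulators comprised 6 genes, of which 5 were lower in KO with a group median of -0.32. Ccnb1, cyclin B1, the partner that gives Cdk1 its mitotic activity, read 2.74, 2.01 and 2.03 in the KO tumours, against 2.96, 2.40 and 2.95 in the WT tumours. It averaged 2.26 ± 0.42 in KO tumours and 2.77 ± 0.32 in WT tumours (SD, n = 3 each), with a difference of -0.51 (SE 0.27) and a limma adjusted p of 0.476. KO2 and KO3 were below all WT tumours and KO1 was among them, and without KO1 the difference was -0.75. The kinase itself, Cdk1, read 0.54, -0.41 and 0.0012 in the KO tumours, against 0.45, 0.17 and 0.66 in the WT tumours, with a difference of -0.39 (SE 0.27) and a limma adjusted p of 0.596. KO2 and KO3 were again the lowest and KO1 lay between WT1 and WT3. Ccna2, cyclin A2, which acts in S phase and at mitotic entry, read 2.63, 2.16 and 2.19 in the KO tumours, against 2.54, 2.61 and 2.67 in the WT tumours. Its WT tumours spanned 0.14, KO1 was inside that span and the difference was -0.28 (SE 0.18), with a limma adjusted p of 0.550. Cdc25c, the phosphatase that removes the inhibitory phosphates of Cdk1, read 0.95, 0.13 and 0.17 in the KO tumours, against 0.97, 0.62 and 0.75 in the WT tumours, with a difference of -0.36 (SE 0.26) and a limma adjusted p of 0.596. Here KO1 was level with WT1.

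Ccnb2, cyclin B2, was the exception among the 50. It read 3.28, 2.81 and 2.84 in the KO tumours, against 2.88, 2.82 and 2.68 in the WT tumours, with a difference of 0.19 (SE 0.18) and a limma adjusted p of 0.713. That difference was smaller than the SD among KO tumours. KO1 alone carried the higher mean, since KO2 and KO3 lay within the WT range and the difference without KO1 was 0.03. Foxm1, the transcription factor that drives many genes of this wave, read 0.90, 0.34 and 0.72 in the KO tumours, against 0.74, 0.62 and 0.77 in the WT tumours, with a difference of -0.06 (SE 0.19) and a limma adjusted p of 0.925. KO2 alone lay below the WT tumours by more than their own spread.

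The 4 kinases of the centrosome and of mitotic entry were all lower, with a median of -0.20. Plk4, which starts centriole duplication, read -0.20, -0.62 and -0.56 in the KO tumours, against 0.0041, -0.17 and 0.09 in the WT tumours. No KO tumour reached a WT tumour, and the difference was -0.43 (SE 0.18), with a limma adjusted p of 0.369. Nek2, which helps split the centrosomes, read -0.91, -1.44 and -1.34 in the KO tumours, against -0.97, -0.91 and -1.24 in the WT tumours, and Aurka, the Aurora A kinase that matures them, read 2.95, 2.22 and 2.35 in the KO tumours, against 2.46, 3.03 and 2.65 in the WT tumours. In both KO1 was among the WT tumours or level with them, and the differences were -0.19 and -0.21 (limma adjusted p 0.733 and 0.772). Plk1, the Polo kinase needed from entry to cytokinesis, read 3.99, 2.83 and 2.78 in the KO tumours, against 3.45, 3.46 and 3.13 in the WT tumours. KO1 exceeded the other KO tumours by more than 1 log2 unit and exceeded every WT tumour, while KO2 and KO3 were below all of them. With KO1 included the difference was -0.15 (SE 0.34), with a limma adjusted p of 0.887, and without it the difference was -0.54.

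All 5 spindle checkpoint genes were lower, with the largest group median at -0.40. Ttk, the kinase known as Mps1 that recruits the checkpoint to kinetochores, had the largest difference of the 50; its probe lies at chr9:83765807-83765866 (mm9, per the file's annotation). It read -0.72, -1.60 and -1.05 in the KO tumours, against 0.07, -0.28 and 0.16 in the WT tumours, or -1.13 ± 0.44 in KO tumours and -0.02 ± 0.23 in WT tumours (SD, n = 3 each). Every KO tumour was below every WT tumour and the difference was -1.11 (SE 0.26), with a limma adjusted p of 0.206. This 2.16-fold lower level did not pass the test. Its 3 other probes that passed the filter were lower by smaller amounts, at -0.75, -0.51 and -0.08, so the size differed between probes. Bub1, a checkpoint kinase, read -0.08, -0.91 and -0.38 in the KO tumours, against 0.14, -0.18 and 0.06 in the WT tumours, and Bub1b, the inhibitor BubR1, read -0.37, -0.85 and -1.05 in the KO tumours, against -0.47, -0.26 and -0.31 in the WT tumours. For both KO1 overlapped the WT tumours, with differences of -0.46 and -0.40 (limma adjusted p 0.474 and 0.465).

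Mad2l1, whose protein Mad2 binds Cdc20 to block anaphase, read 1.94, 1.28 and 1.55 in the KO tumours, against 2.04, 1.73 and 2.02 in the WT tumours, with a difference of -0.34 (SE 0.21) and a limma adjusted p of 0.546, where KO1 lay among the WT tumours and KO2 and KO3 below them. Bub3, the partner that docks Bub1 and BubR1 on kinetochores, read 5.15, 4.62 and 4.70 in the KO tumours, against 5.23, 4.66 and 4.64 in the WT tumours. WT2 and WT3 lay at the level of KO2 and KO3, and the difference was -0.02 (SE 0.24), with a limma adjusted p of 0.984, far inside the spread.

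The anaphase ubiquitin machinery and separase were represented by 4 genes, all lower, with a median of -0.22. Cdc20, the activator of the anaphase-promoting complex that the checkpoint holds back, read 4.82, 3.74 and 3.88 in the KO tumours, against 4.87, 4.45 and 4.59 in the WT tumours, or 4.15 ± 0.59 in KO tumours and 4.64 ± 0.21 in WT tumours (SD, n = 3 each). KO1 was next to WT1 at the top, KO2 and KO3 were clearly below the rest, and the difference was -0.49 (SE 0.31), with a limma adjusted p of 0.551, and it was -0.83 without KO1. Ube2c, the ubiquitin-conjugating enzyme of the complex, read 3.41, 2.87 and 3.07 in the KO tumours, against 3.40, 3.21 and 3.51 in the WT tumours, with a difference of -0.26 (SE 0.19) and a limma adjusted p of 0.617, and KO1 again lay among the WT tumours. Espl1 (separase, which cuts cohesin) and Pttg1 (securin, its inhibitor) differed by -0.18 and -0.04, and a second Pttg1 probe by 0.10.

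In the chromosomal passenger complex, which corrects faulty attachments and then moves to the midzone, all 4 genes were lower with a median of -0.16. Aurkb, its Aurora B kinase, read 0.60, -0.14 and -0.05 in the KO tumours, against 0.41, 0.67 and 0.48 in the WT tumours, with a difference of -0.38 (SE 0.23) and a limma adjusted p of 0.533, and KO1 was between WT3 and WT2 while KO2 and KO3 were below all WT tumours. Incenp, the scaffold, read 3.96, 3.38 and 3.54 in the KO tumours, against 3.75, 3.79 and 3.90 in the WT tumours. Cdca8, the Borealin subunit, read 3.77, 3.29 and 3.08 in the KO tumours, against 3.59, 3.63 and 3.34 in the WT tumours. Both had KO1 above every WT tumour, and their differences of -0.19 and -0.14 (limma adjusted p 0.727 and 0.821) were below the SD among KO tumours. Birc5, survivin, differed by -0.08.

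The 7 centromere and kinetochore genes were all lower, with a median of -0.26. Spc24, a subunit of the Ndc80 complex that grips microtubules, read 2.54, 1.65 and 1.92 in the KO tumours, against 2.53, 2.37 and 2.46 in the WT tumours, with a difference of -0.42 (SE 0.24) and a limma adjusted p of 0.519, and KO1 was level with WT1. Its partner Nuf2 read 1.13, 0.64 and 0.71 in the KO tumours, against 1.17, 1.17 and 1.03 in the WT tumours, and its partner Spc25 read 3.07, 2.58 and 2.83 in the KO tumours, against 3.33, 2.80 and 3.14 in the WT tumours. In these 3 subunits KO1 was within the WT range or at its edge and KO2 was lowest; the differences of Nuf2 and Spc25 were -0.30 and -0.26 (limma adjusted p 0.533 and 0.638). Cenpe, the kinesin that carries chromosomes to the metaphase plate, read 2.84, 2.40 and 2.69 in the KO tumours, against 3.10, 2.59 and 3.14 in the WT tumours, with a difference of -0.30 (SE 0.21) and a limma adjusted p of 0.600, and WT2 fell among the KO tumours. Cenpf, Cenpa (the centromeric histone) and Ndc80 itself differed by -0.25, -0.21 and -0.17.

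Spindle motors and microtubule proteins numbered 7, all lower, with a median of -0.34. Nusap1, which bundles spindle microtubules near chromosomes, read 0.93, 0.63 and 0.66 in the KO tumours, against 1.24, 0.98 and 1.15 in the WT tumours, or 0.74 ± 0.17 in KO tumours and 1.12 ± 0.13 in WT tumours (SD, n = 3 each). The highest KO tumour stayed just below the lowest WT tumour, and the difference was -0.39 (SE 0.16), with a limma adjusted p of 0.378. Kif4, a chromosome-borne kinesin, read -0.63, -1.36 and -1.24 in the KO tumours, against -0.63, -0.44 and -0.89 in the WT tumours, and Kif11, the motor that pushes spindle poles apart, read -0.57, -0.96 and -1.39 in the KO tumours, against -0.68, -0.33 and -0.70 in the WT tumours. For both, KO1 overlapped the WT tumours and WT2 was the highest of all, with differences of -0.43 and -0.40 (limma adjusted p 0.505 and 0.535). Tpx2, which activates Aurora A and seeds microtubules, read 1.25, 0.66 and 0.53 in the KO tumours, against 1.33, 1.15 and 1.00 in the WT tumours, with a difference of -0.34 (SE 0.23) and a limma adjusted p of 0.570, and KO1 overlapped the WT tumours. Hmmr, Kif2c and Ckap2 differed by -0.19, -0.19 and -0.08.

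The 6 genes of the midzone and cytokinesis were lower with a median of -0.19. Kif23, the kinesin MKLP1 of the centralspindlin complex, had the next largest difference after Ttk; its probe's ends lie farther apart than its length, across an intron, at chr9:61767733-61768853 (mm9). It read -0.21, -0.67 and -0.37 in the KO tumours, against 0.36, 0.30 and 0.13 in the WT tumours, or -0.42 ± 0.23 in KO tumours and 0.26 ± 0.12 in WT tumours (SD, n = 3 each). The groups did not overlap and the difference was -0.68 (SE 0.17), with a limma adjusted p of 0.231. The level was 1.61-fold lower by this probe, and its 2 other probes were at -0.37 and -0.13. Its complex partner Racgap1 differed by -0.02 only by the brightest probe, with other probes at 0.08 and -0.27. The sizes by probe overlapped between these centralspindlin subunits, and whether they were lower by different amounts was not tested. Ect2, the exchange factor that centralspindlin recruits to start the contractile ring, read 0.82, 0.45 and 0.74 in the KO tumours, against 1.18, 0.70 and 1.13 in the WT tumours, with a difference of -0.34 (SE 0.20) and a limma adjusted p of 0.520. WT2 was below both KO1 and KO3, so the groups overlapped. Anln, anillin, a ring scaffold, read 2.85, 2.37 and 2.74 in the KO tumours, against 3.07, 2.80 and 2.85 in the WT tumours, and Kif20a, a midzone kinesin, read 1.69, 0.98 and 1.15 in the KO tumours, against 1.65, 1.08 and 1.50 in the WT tumours. KO1 lay within the WT range for Anln and just above WT1, the highest WT tumour, for Kif20a, and the differences were -0.25 and -0.14 (limma adjusted p 0.608 and 0.854). Prc1, the midzone bundler, differed by -0.14, with another probe at 0.10.

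Chromosome structure was represented by 7 genes, all lower, with a median of -0.30. By the brightest probe, the condensin subunits Ncaph, Ncapg and Smc2 had the largest differences. Ncaph, the kleisin that closes the condensin I ring (probe at chr2:126929625-126929684, mm9), read 2.09, 1.24 and 1.65 in the KO tumours, against 2.16, 2.29 and 2.33 in the WT tumours, or 1.66 ± 0.42 in KO tumours and 2.26 ± 0.09 in WT tumours (SD, n = 3 each). All KO tumours were below all WT tumours, although KO1 came close to WT1, and the difference was -0.59 (SE 0.23), with a limma adjusted p of 0.358. Smc2, the ATPase shared by both condensins, read 1.73, 1.12 and 1.24 in the KO tumours, against 1.90, 1.68 and 2.09 in the WT tumours, with a difference of -0.53 (SE 0.21) and a limma adjusted p of 0.368. KO1 alone reached the WT range, just above WT2. Ncapg, another condensin I subunit, read 2.17, 1.33 and 1.45 in the KO tumours, against 2.24, 2.12 and 2.20 in the WT tumours. Its KO1 lay within the narrow WT range, KO2 and KO3 well below, and the difference was -0.53 (SE 0.24), with a limma adjusted p of 0.409, and it was -0.79 without KO1. Smc4, the partner of Smc2, read 2.00, 1.68 and 1.88 in the KO tumours, against 2.38, 1.79 and 2.30 in the WT tumours, and Ncapd2 read 3.27, 2.87 and 2.86 in the KO tumours, against 3.01, 3.22 and 3.33 in the WT tumours. By these probes the 2 subunits overlapped more, at -0.30 and -0.19 (limma adjusted p 0.576 and 0.706), and a second Ncapd2 probe was at 0.19. The order of the condensin subunits differed between probes. Other Smc4 probes were at -0.42, where the genotypes did not overlap, and -0.38. Other probes of Smc2 were at -0.38 and -0.23, of Ncapg at -0.26 and of Ncaph at -0.37.

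Mki67, whose protein Ki-67 coats mitotic chromosomes and is the usual stain for cycling cells, read 4.85, 3.92 and 3.97 in the KO tumours, against 4.82, 4.22 and 4.46 in the WT tumours. KO1 was level with WT1 and KO2 and KO3 were below every WT tumour, and the difference was -0.25 (SE 0.30), with a limma adjusted p of 0.763, and it was -0.56 without KO1. Top2a, the topoisomerase that untangles sister chromatids, differed by -0.21, with another probe at 0.08. The 17 genes not given in every tumour by the rule for named genes, among them Cdk1, Ccnb2, Foxm1, Plk1 and Mki67, which were added for their roles with their values known, had differences of -0.39 to 0.19 and limma adjusted p-values of 0.596 to 0.979.

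**Figure D4:**
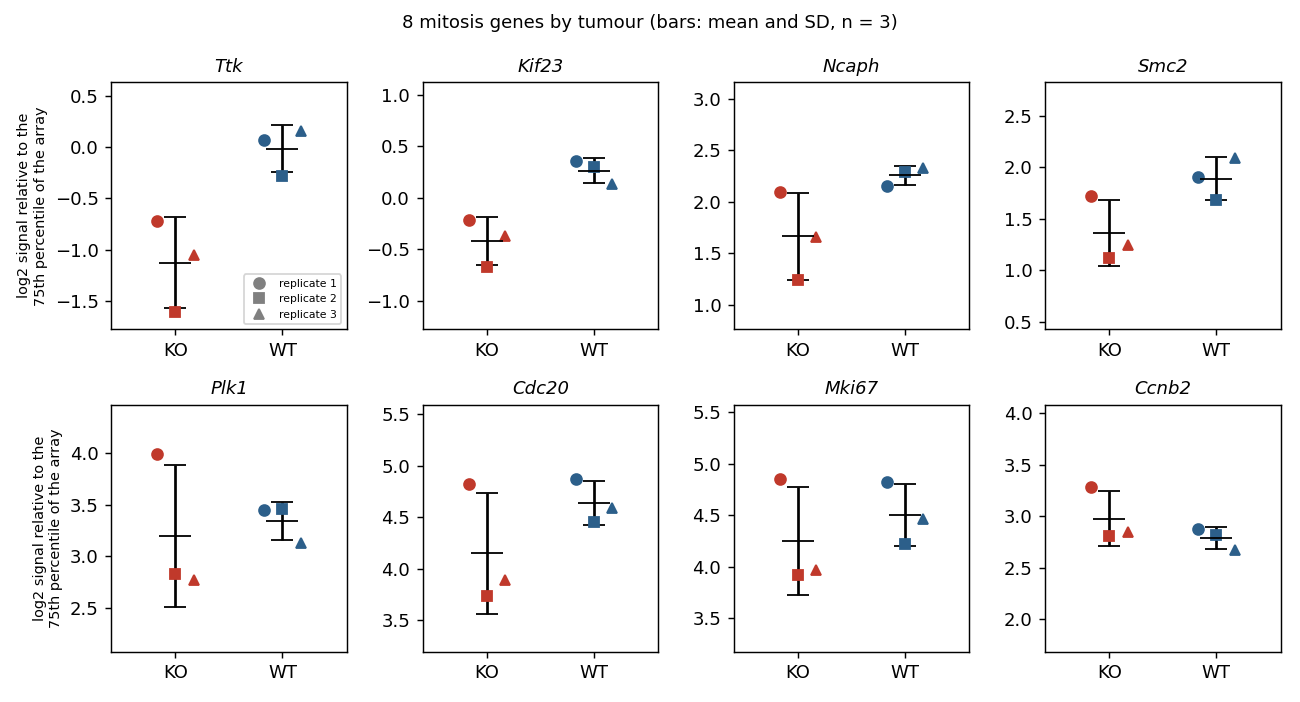
Level in each tumour (points; log2 signal minus the array's 75th percentile, vertical axis) with the mean and SD of each genotype, KO left of WT, for 8 genes (circle, square and triangle are tumours 1, 2 and 3). KO and WT points do not overlap for Ttk, Kif23 and Ncaph, and for Smc2, Cdc20 and Mki67 KO1 sits among or level with the WT tumours.

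Other probes of the same genes gave a similar picture of the direction, though not of the separation between genotypes. Of 100 probes of the 50 genes, 90 passed the filter, 40 of them beside the brightest, for 25 genes. Of these 40, 35 were lower in KO and 5 were higher (of Ncapd2, Prc1, Pttg1, Racgap1 and Top2a, each under 0.2), with a median of -0.27. KO1 was the highest KO tumour in 38 of the 40. The other probes of Kif23 (-0.37 and -0.13), Ncaph (-0.37) and Plk4 (-0.40 and -0.13) overlapped between genotypes, unlike the brightest probes. Of the other Ttk probes, those at -0.51 and -0.08 overlapped and that at -0.75 did not. The probe at -0.75 was dim and not well above background on all 6 arrays, so its separation adds little. Nusap1 had no other probe that passed the filter. In the other direction, dimmer probes of Smc4 (-0.42) and Kif2c (-0.53) separated the genotypes where the brightest probes overlapped. That Kif2c probe was not well above background on all 6 arrays.

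The split of KO1 from KO2 and KO3 reached other genes of cell division, chosen by role. Of 93 other mitosis genes tested, 80 were lower in KO with a median of -0.21, 0 passed the limma adjusted threshold, 7 were lower and 0 were higher at an unadjusted p under 0.05 (5.36% of all features were lower by that measure and 7.85% higher), and KO1 was the highest KO tumour for 75 (39.8% of all features). Of 43 S-phase genes, 40 were lower with a median of -0.28, 0 passed, and 2 were lower at an unadjusted p under 0.05, a share no larger than the 5.36% of all features. KO1 was highest for all 43, by a median of 0.57 over KO2 and 0.43 over KO3. The 2 with the unadjusted p were Rpa3, a subunit of the single-strand DNA binding protein RPA, at -0.48, and Tyms, thymidylate synthase, at -0.56. The gap between KO1 and the other KO tumours was therefore not limited to mitosis genes.

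Within the other mitosis genes the groups varied. The 27 genes of the inner centromere and outer kinetochore had a median of -0.31, led by p by Spdl1 (-0.55), Kntc1 (-0.60), Cenpw (-0.80) and Cenpc1 (-0.40), with limma adjusted p from 0.254 to 0.324. The 20 other kinesins and spindle genes had -0.22, with Depdc1a at -0.61 and Kif14 at -0.70, and the 19 entry regulators, which include the Foxm1 and MuvB partners, had -0.18, with Cks2 at -0.35 and Mybl2 at -0.47. KO1 exceeded KO2 in these 3 groups by medians of 0.54, 0.58 and 0.46. The 14 subunits and regulators of the anaphase-promoting complex, most of which are made throughout the cell cycle, had a median of -0.11, and KO1 exceeded KO2 by 0.08. For the 13 cohesin genes the median was -0.26 and KO1 exceeded KO2 by 0.12, with Esco2, an acetyltransferase that acts in S phase, at -0.68 (limma adjusted p = 0.334).

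**Figure D5:**
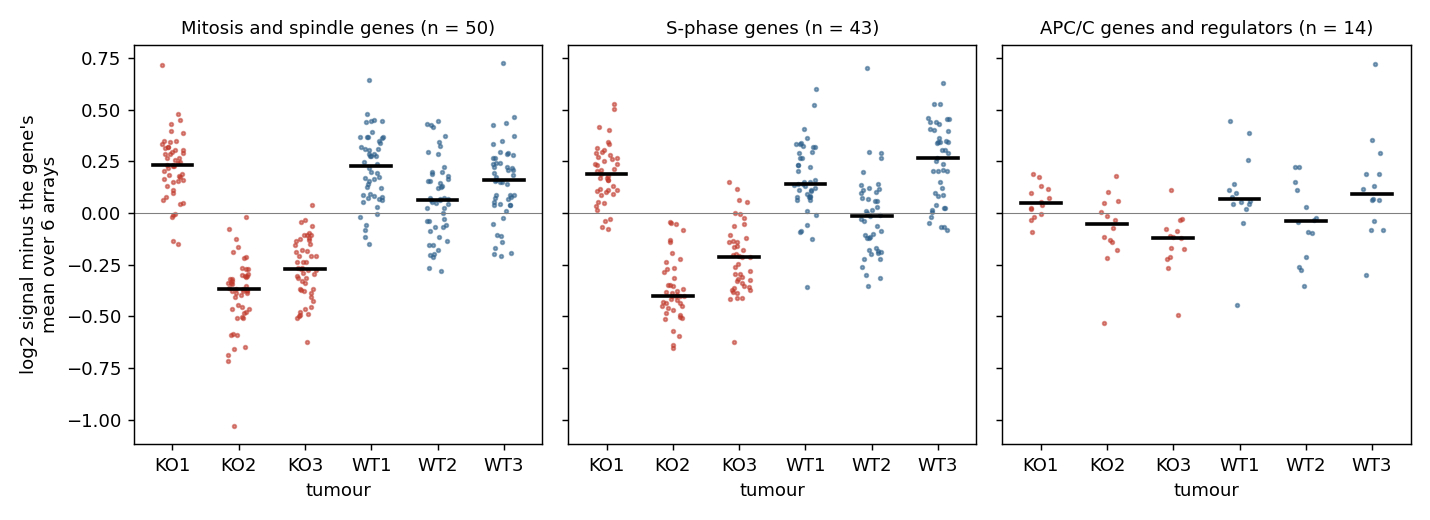
Log2 signal minus the gene's mean over 6 arrays (vertical axis) in each tumour (KO1 to KO3 left, WT1 to WT3 right), with 1 point per gene and a bar at the median, for the 50 mitosis and spindle genes, 43 S-phase genes and 14 genes of the anaphase-promoting complex and its regulators. For the mitosis and spindle genes the medians are 0.23, -0.37 and -0.27 in KO1, KO2 and KO3, against 0.23, 0.06 and 0.16 in WT1, WT2 and WT3, and the S-phase genes show the same low KO2 and KO3.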

How the data were processed

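RNA from 3 KO and 3 WT tumours was read on 1-colour Agilent arrays. The deposited files give the intensity of each spot (linear scale), which per the file headers was background-subtracted and detrended. The program named in the submitters' processing notes is Agilent Feature Extraction 10.7.1.1. The authors' series table has log2 values (r 0.999449 to 0.99997 with each array's processed signal, every column's median 4.969, so genes are not centred), and the sources used here do not give its normalization. The level used is log2 of that processed signal after subtracting the array's 75th percentile on the log2 scale (277 to 300 units in KO, 322 to 368 in WT). Of 62976 spots, 59305 were not controls; 68 to 184 outlier spots per array were left out. A probe was tested if well above background on every array of a genotype. Names came from RefSeq (GRCm38.p6): 32994 probes by accession, 10224 by symbol, 520 by synonym, 12867 kept the array's name. The brightest probe stood for a gene. KO minus WT was fitted over 19755 features with limma 3.58.1 (lmFit, eBayes; R 4.3.3, data.table package, version 1.17.8), adjusted by Benjamini-Hochberg, threshold 0.05; the script was tested on simulated data. The number of arrays limits the precision: an exact permutation test of 3 against 3 cannot go below 0.1.

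Values in every tumour are given for the 15 genes with the smallest p and the next 2 by p in each of 9 role groups (33 genes), and differences for the rest; of other lists, up to 4 genes per group by p. The genes, lists and tests were chosen with earlier results of these data known. Replicate numbers were not taken as pairs. Alternatives were background correction, normalization, filter, probe summary, array weights, blocks and each tumour left out.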

Additional observations from a re-analysis of the deposited data

How the results depend on the processing

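None of the 50 genes passed the adjusted threshold in limma under any of 18 alternatives (the smallest adjusted p ranged from 0.118 to 0.451), and 2 to 22 had an unadjusted p under 0.05 in all but 1 of them. That exception, the slide row as a block, was added after the data were seen: it gave 1 gene, 20 lower genes and a median of 0.085, which reverses the sign, and it rests on KO1 against WT3. Counts at an unadjusted p under 0.05, 6 as reported, were 2 with the mean over probes, 3 with the slide column as a block and 4 with a replicate block. Same-numbered tumours deviated together with correlations of 0.063, 0.256 and 0.144, and differently numbered ones with -0.198 to 0.097. The labels name no pairs, so the main fit did not use the numbers as pairs. Leaving out a tumour gave counts of 2 to 22, with 22 without KO1 and 2 without KO2, KO3, WT1 or WT3. The genes lower in KO were 48 or 49 under the other planned settings and 41 to 49 when a tumour was left out; the median was -0.24 to -0.37, and -0.15 (without KO2) to -0.43 (without KO1). Features past the threshold, 32 as reported, numbered 10 with normexp, 18 without a filter, 58 with array weights, 5 where all 6 arrays had to exceed background, 5 with a replicate block, 21 with the slide column and 0 with the slide row as a block, and 10 (without KO3) to 120 (without WT2) when a tumour was left out. Ttk differed by -1.31 to -0.61 (adjusted p 0.118 to 0.531) and Kif23 by -0.79 to -0.35 (0.137 to 0.708). Of 594 named-gene differences 20 changed sign, 14 of them with the slide row. The 3 arrays per genotype and the spread among KO tumours limit what could be detected. The cause of these changes was not tested.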
